A study of Drosophila melanogaster with 51 samples.

Results

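Among the regions of open chromatin called in basal Kc167 cells, 312 of 16118 (1.94%) had their midpoint in an annotated 3′ untranslated region (UTR), in no coding sequence or 5′ UTR, and more than 250 bp from every transcription start site (TSS) of a protein-coding gene. The members were picked by position alone, from the Ensembl annotation of Drosophila melanogaster, and no measured height or signal entered the choice. Kc167 is a fly cell line derived from embryos with properties of hemocytes, the blood cells of the fly. Chromatin accessibility was mapped by ATAC-seq, where the Tn5 transposase inserts sequencing adapters into exposed DNA. The list merges 3 libraries of untransfected cells (genotype as in the parental line, no copper sulfate listed) and holds positions only. The series also covers stable lines carrying copper-inducible eGFP-Dfd, eGFP-Ubx, eGFP-AbdB, Hth or gcm constructs, 48 libraries that were not analysed here. Of 14 hemocyte and plasmatocyte markers, 12 had an open region within 250 bp of a TSS, among them srp, Hml and Pxn, while NimC1 and He had none. Over all protein-coding genes the share with such a region was 47.8%.

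A 3′ UTR runs from the stop codon to the site where the transcript is cleaved and polyadenylated. The cleavage machinery recognises the AATAAA signal (AAUAAA in the RNA) shortly before that site, and the UTR carries sites read in the RNA by microRNAs, by Pumilio and by proteins that bind AU-rich elements. The same DNA can also hold sites for transcription factors, promoters of neighbouring or nested genes, and alternative ends of the gene. In the compact fly genome, the end of a gene often lies close to the start of the next one.

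To show what these regions hold, short stretches around DNA-motif matches are printed for some of the members with a match. They were taken in order of width, but members on 1 chromosome arm, members with several host genes and matches at the edge of the 200-bp window were passed over, so wider members with a match exist in each set. They come from the dm6 genome (RefSeq Release 6 sequence), 30 bases each, 5′ to 3′ on the strand of the host gene, and the capitals mark the match or its reverse complement. The first set holds the DNA replication-related element (DRE, TATCGATA), a promoter motif bound by Dref. These 4 members all lie within 500 bp of a TSS, and the stretches of the other 2 members with this motif, exu and Maf1, which lie farther away, are not printed. Of those shown, vrs lies at chr3R:12449002-12449031 on the plus strand, CG7370 at chr3L:21770985-21771014 on the plus strand, CG13454 at chr3L:15516660-15516689 on the minus strand and dco at chr3R:31054258-31054287 on the minus strand.
vrs: cggcatcgataTATCGATAgttggttcgcg
CG7370: agggttttcctTATCGATAtctaatcgatg
CG13454: agtgccacaccTATCGATAtgatagctatc
dco: ttcgacggatgTATCGATAagtgcacgata
The second set holds the GATA motif TGATAA, the type of site bound by GATA factors such as Serpent, the product of srp: elav lies at chrX:510698-510727 on the minus strand, dia at chr2L:20761725-20761754 on the plus strand, Ssu72 at chrX:19665784-19665813 on the plus strand and btsz at chr3R:14806843-14806872 on the minus strand.
elav: ttaaggcaactgTGATAAggcgaacaaacc
dia: ggccatggtccaTTATCAgtcttgcggagt
Ssu72: cgactgggggtcTTATCAcaggctctcgct
btsz: aagcaaaaaaccTTATCAagtttatggcac
The last set holds GAGAGAG, a site for GAGA factor: tio lies at chr2L:22024551-22024580 on the plus strand, CG12730 at chrX:5518278-5518307 on the plus strand and CG3078 at chrX:2255269-2255298 on the minus strand, where the match opens a longer GA repeat.
tio: aaagcgcgagcGAGAGAGgactagcaagct
CG12730: gagtttgttttGAGAGAGcgagtatcgctt
CG3078: ggagtaagcaaGAGAGAGagagagagagag

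Open regions were sparser in 3′ UTRs than in introns and denser than in coding sequence. The 312 midpoints fell on 6.44 Mb of eligible sequence, meaning all 3′ UTR bases that meet the rule, which gave 48.4 regions per Mb (95% Poisson interval 43.2 to 54.1). The same quantity was 26.8 per Mb in coding sequence, 85.9 in introns and 437 in 5′ UTRs, each counted outside the TSS windows. Within 250 bp of a protein-coding TSS it was 873 per Mb, and over all chromosome arms 117. Here and below, intervals for densities are exact Poisson, those for shares are Wilson and those for medians come from order statistics. All cover counting error only, since the merged list has no replicate values. Overlapping intervals do not show that values are equal, and no difference was tested.

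In width, the 3′ UTR regions resembled the list as a whole. Their median was 229 bp (212 to 245), with quartiles of 173 and 327 bp and a range of 107 to 1204 bp. In total, 186 (59.6%) were at least 200 bp wide and 2 exceeded 1000 bp. The median over all regions was 233 bp. Regions in introns and coding sequence were wider, with medians of 284 and 298 bp, those in 5′ UTRs had a median of 239 bp, and those in TSS windows were narrower at 205 bp.

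**Figure D1:**
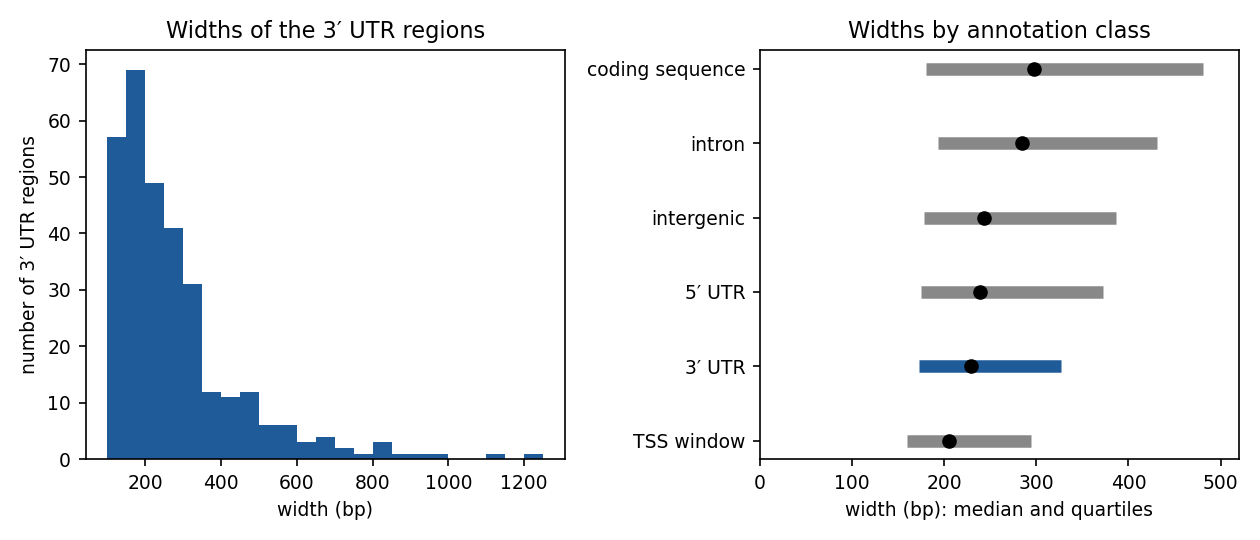
Left, widths in bp of the 312 regions in 3′ UTRs, counted in bins of 50 bp. Right, median width (points) and quartiles (bars) by annotation class: the 3′ UTR median of 229 bp sits between the TSS windows (205 bp) and the introns (284 bp).

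Several of the widest regions ran past the annotated end of the transcript. The widest, of 1204 bp, lay in Toll-7, which encodes a Toll-family receptor; its midpoint was 1658 bp from the stop codon in a UTR of 1728 bp, and 55.8% of its bases were eligible. The next were osp (1130 bp, 54.0% eligible) and CG11226 (966 bp, 44.9% eligible), each again centred near the end of its UTR. Regions that stayed wholly inside the UTR were found in Drl-2, a Ryk-family receptor for Wnt ligands (931 bp), Glut4EF (807 bp), Ppa, an F-box protein gene (769 bp), and Plc21C, a phospholipase C (699 bp). The region in elav, which encodes an RNA-binding protein of neurons, spanned chrX:510445-511118, 7009 bp from the stop codon in an 8557-bp UTR. Other wide examples were bun, of the TSC22 family (831 bp), the peroxisomal Pex11c (707 bp), Lsd-2, a perilipin of lipid droplets (583 bp), and the formin dia (577 bp). Over all members, 38 (12.2%) covered an annotated transcript end of the host, and 227 lay with every base in eligible sequence.

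The regions fell in 271 host genes, of which 230 held 1 region, 33 held 2, 7 held 3 and 1 held 4. A UTR shared by overlapping genes counted for each gene, which concerned 9 regions. The gene with 4 was mtd, with regions of 125, 257, 153 and 138 bp between 2444 and 3174 bp from the stop codon, separated by gaps of 32 to 85 bp. Hosts with 3 regions were heph, the fly polypyrimidine tract-binding protein, br, the ecdysone-induced Broad factors, and csw, a SHP2-type phosphatase. The others were Maf1, a repressor of RNA polymerase III, raskol, a RasGAP, Cals, a calsyntenin, and CG3078. The regions of heph lay in the UTR of only 8% of its coding transcripts, and those of br in 6.25 to 12.5%. In Maf1 the regions were spread over the UTR, with midpoints 385, 1801 and 2640 bp from the stop codon. CG3078 and raskol held their regions in shorter UTRs of 1337 and 755 bp, with midpoints 536, 830 and 1139 bp from the stop codon in CG3078 and 59, 279 and 607 bp in raskol. When regions up to 100 bp apart were merged, 292 separate sites remained, and 273 when the limit was 1 kb.

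**Figure D2:**
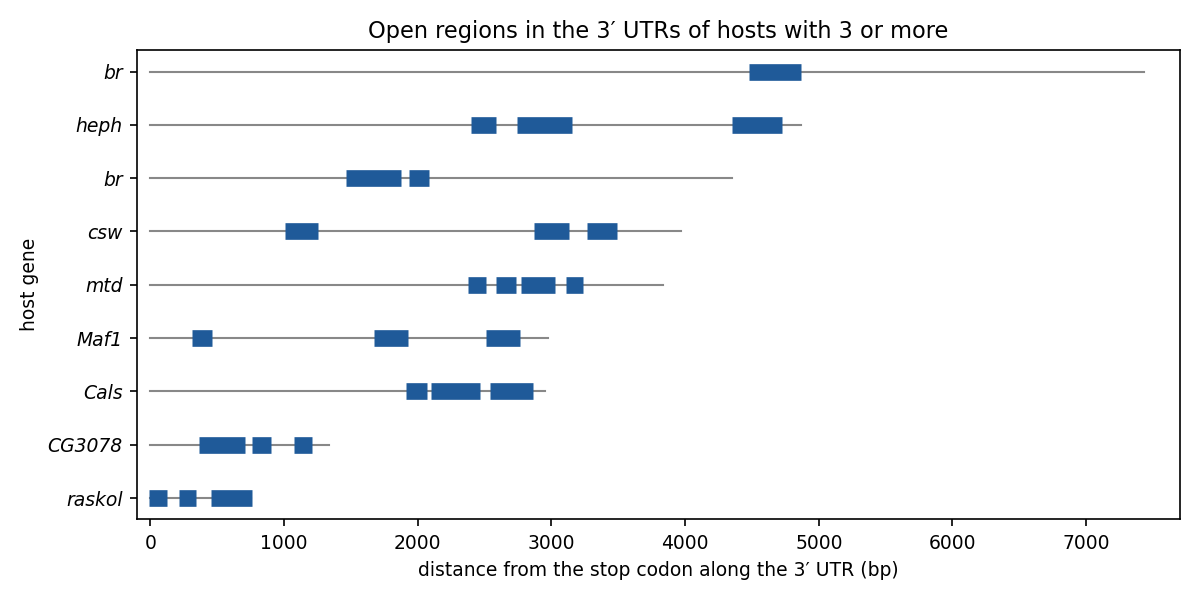
Position of open regions (blue blocks, drawn to width around their midpoints) in the 3′ UTRs (grey lines) of the 8 hosts with 3 or more regions, in bp from the stop codon. br appears on 2 lines because its regions lie in UTRs of different transcripts (7430 and 4349 bp), and the 4 regions of mtd sit side by side in the distal part of a 3831-bp UTR.

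Hosts had open promoters more often than protein-coding genes in general, a difference that was smaller or reversed against genes with UTRs of like length. Genes with long UTRs hosted regions more often. An open region lay within 250 bp of a TSS in 191 of 271 hosts (70.5%, 64.8 to 75.6), compared with 47.8% of all protein-coding genes. Among genes with at least 200 bp of eligible 3′ UTR and no member, the share was 63.3%. At 200 bp to under 500 bp of eligible sequence it was 52.9% of hosts and 55.6% of genes without a member. It was 71.0% and 68.8% at 500 bp to under 1000 bp, and 78.3% and 72.7% at 1000 bp to under 2000 bp. In the longest classes it was 80.7% and 71.2%, then 83.9% and 69.8%. A member that itself reached a TSS window of its host, as in Ilk, also counted. Of 6668 genes with at least 200 bp of eligible sequence, 244 (3.66%) hosted a region, and this share climbed with UTR length from 1.09% at 200 bp to under 500 bp to 19.4% at 4000 bp or more. Per Mb the shortest class had 32.1 regions (21.9 to 45.3) and the longest 41.7 (29.9 to 56.6), with 61.2 (48.7 to 75.9) at 2000 bp to under 4000 bp, so the density had no steady order. UTRs of genes with an open TSS held more regions per Mb, 51.0 (44.6 to 58.1), than UTRs of genes without, 38.6 (30.9 to 47.7). The intervals overlapped, which does not show that the densities were equal.

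The density was highest in the bin nearest to a protein-coding TSS, whether of the host or of another gene. More than 250 and up to 500 bp from the nearest protein-coding TSS there were 38 regions, or 99.1 per Mb (70.1 to 136). It was 55.2 per Mb (40.8 to 72.9) between 500 and 1000 bp, 43.8 between 1000 and 2000 bp, 41.2 between 2000 and 4000 bp and 45.3 (36.5 to 55.6) beyond 4000 bp, where 91 regions lay. The median distance was 2064.5 bp. The farthest were in Glut4EF, at 27434 and 26006 bp, followed by the Hox gene Antp (24554 bp). The next were the potassium channel gene Sh (23250 bp) and the corepressor gene Smr (21463 bp). The Glut4EF regions lay in the UTR of only 12.5% of its coding transcripts and the Antp region in that of 8.33%. The Glut4EF and Antp regions also lay in an intron of some protein-coding transcript. For 113 regions the nearest TSS belonged to the host, for 116 to another gene on the same strand and for 83 to a gene on the opposite strand.

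The limit of 250 bp cut through a continuous range. Just inside it were CG14591 at 256 bp, CG11656 at 260 bp, vrs at 266 bp, UQCR-Q at 271 bp and CG11164 at 275 bp. Just outside were CG6414 at 245 bp, CG31347 at 226 bp, CG33169 at 214 bp, CG10265 at 182 bp and Pex11ab at 170 bp. In all, 36 of 348 midpoints in 3′ UTRs lay within the limit and were left out. Of the members, 21 reached into a TSS window with an edge.

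**Figure D3:**
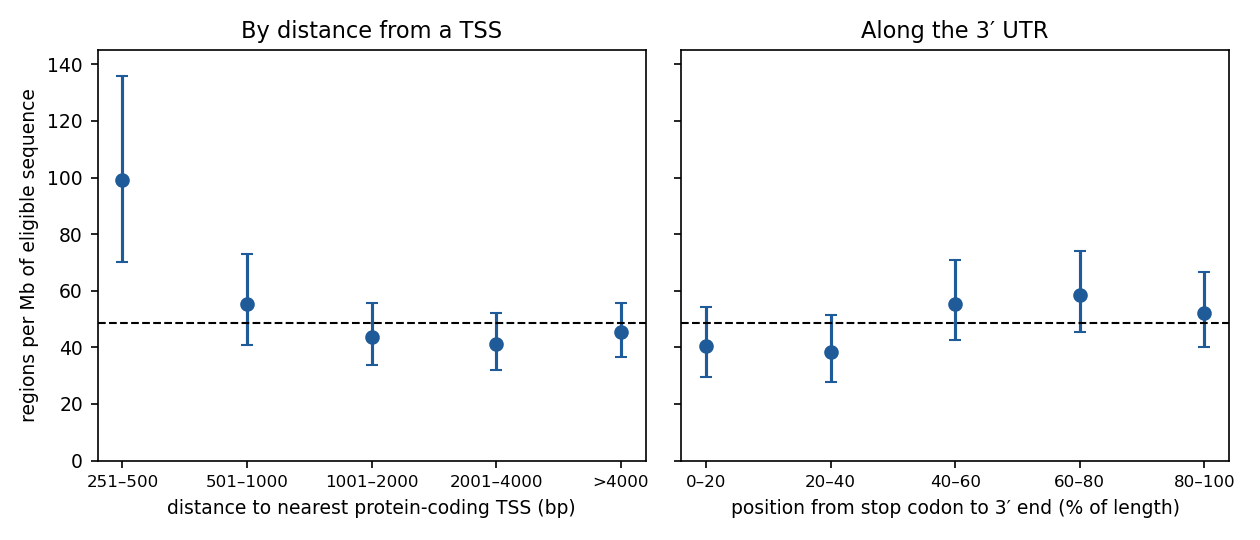
Open regions per Mb of eligible 3′ UTR sequence by distance from the nearest protein-coding TSS (left) and by position in the UTR from stop codon to 3′ end (right), with 95% Poisson intervals; the dashed line is the overall 48.4 per Mb. The bin nearest to a TSS stands at 99.1 per Mb, and the 5 equal parts of the UTR range from 38.2 to 58.4.

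Along the UTR the regions were found from the stop codon to the end. The densities were lowest in the parts nearest to the stop codon, with overlapping intervals. The median relative position was 0.562 (0.515 to 0.605), where 0 is the stop codon and 1 the end. In 5 equal parts of the UTR from the stop codon on, the density was 40.7, 38.2, 55.4, 58.4 and 52.1 per Mb, with intervals that overlapped between all of them. The eligible sequence also rose along these parts, from 1.11 Mb in the first to 1.23 Mb in the last, and the median position does not allow for that. These parts used 277 regions placed on the UTR model of a gene, and a region in overlapping genes counted for each. By distance before the UTR end, the density was 44.6 per Mb in the last 200 bp and 57.6 between 200 and 500 bp, with overlapping intervals (33.9 to 57.6 and 45.8 to 71.5). UTRs often differed between transcripts of a host: 129 regions (41.3%) lay in the UTR of every coding transcript, and 46 (14.7%) also lay in an intron of some protein-coding transcript. Only 5 regions (1.60%, 0.686 to 3.70) lay where 3′ UTRs of both strands overlap, and such sequence made up 2.73% of the eligible bases.

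Some regions coincided with the start of a noncoding gene. A noncoding TSS lay within 250 bp of 15 members (4.81%, 2.93 to 7.78), against 4.95% of all open regions. The widest of these was the osp region, at 3 genes for proline tRNA (tRNA:Pro-AGG-1-2, tRNA:Pro-AGG-1-3 and tRNA:Pro-AGG-1-4). Other tRNA genes were found with CG12831 (865 bp, tRNA:Thr-AGT-1-2), not (315 bp, tRNA:Pro-CGG-2-3) and CG32320 (254 bp, tRNA:Glu-CTC-3-8). Genes of spliceosomal RNAs lay in the regions of Cht7, a chitinase (817 bp, snRNA:U5:63BC), and Lsp1beta, a larval serum protein (443 bp, snRNA:U1:21D). Genes for small nucleolar RNAs lay with CG44403 (626 bp, snoRNA:Or-aca4) and RpS7, a ribosomal protein (205 bp, snoRNA:Psi28S-2149). Antisense RNA genes accounted for the remaining 7, in loqs, cn, CG5850, CG7227, CG14054, CG9447 and Karl, with widths of 119 to 466 bp. Reads with several alignments were dropped by the authors, so coverage over sequence that exists in identical copies may be understated. Called regions could still span such genes, as the osp region spanned its tRNA genes.

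The regions were farther from their neighbours than open regions over the whole list, and most like intergenic regions. Another open region lay within 1 kb of 174 members (55.8%, 50.2 to 61.2) and of 70.7% of all regions, and the median gap was 659.5 bp against 220 bp. For 5′ UTR regions the median gap was 84 bp, for coding sequence 203 bp and for introns 311 bp. Intergenic regions came closest, with a median gap of 443 bp and 59.5% (57.4 to 61.6) within 1 kb of another, an interval that overlaps that of the members. The nearest open region was in a TSS window for 117 members, in a 3′ UTR for 84 (in the same host for 81), in an intron for 40 and intergenic for 40.

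On the X chromosome the density was 64.5 per Mb (52.2 to 78.8) with 95 regions, and on the autosomes 43.7 per Mb (38.1 to 49.9) with 217. The ratio was 1.48 (1.15 to 1.89, exact interval for the counts). For all open regions it was 1.13 (1.09 to 1.18), for introns 1.16, for TSS windows 1.13, for 5′ UTRs 1.15 (0.952 to 1.38) and for coding sequence 0.939 (0.745 to 1.17), so the intervals of the other classes and of 3′ UTRs overlapped. The autosomal arms differed among themselves: 2R had 60.7 per Mb (47.1 to 77.1) with 67 regions, close to the X, while 2L had 40.0, 3L 37.8 and 3R 36.7. The ratio of the X to 2R alone was 1.06 (0.768 to 1.47). The small chromosome 4 had 7 regions, or 71.1 per Mb (28.6 to 146), and the Y had 0, on so little eligible sequence that no density can be read from it. The ratio of X to autosomes was 1.60 (0.946 to 2.61) within 1000 bp of a TSS, 1.53 (1.03 to 2.23) between 1000 and 4000 bp and 1.43 (0.897 to 2.25) beyond. With neighbours up to 1 kb apart merged it was 1.37 (1.04 to 1.79). Of all 271 hosts, 77 were on the X, and of the 41 hosts with several regions, 17, among them br, csw, raskol, CG3078, svr, Myc, Act5C, Smr and fog. How many X chromosomes these cells carry was not measured here.

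**Figure D4:**
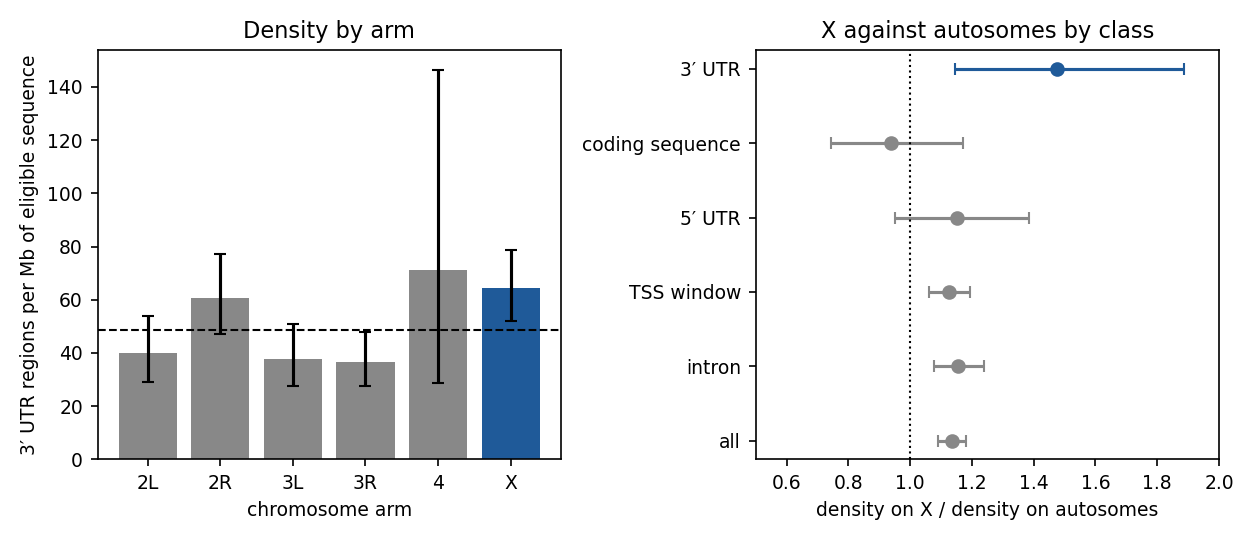
Left, open 3′ UTR regions per Mb of eligible sequence on each arm with 95% Poisson intervals (dashed line, overall 48.4 per Mb): X at 64.5 and 2R at 60.7 lie above 2L, 3L and 3R, and chromosome 4 rests on 7 regions. Right, density on X divided by density on autosomes by annotation class with exact 95% intervals: 1.48 for 3′ UTRs and between 0.939 and 1.16 for the others.

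The open windows were richer in GC than the rest of the 3′ UTRs. In the 200 bp around the midpoint the GC content was 41.6% ± 6.86 (SD over 312 regions), against 35.1% ± 7.24 (SD) in 25468 windows of 200 bp tiled over eligible 3′ UTR sequence outside open regions, called closed windows here. Closed windows lay wholly in eligible sequence, but member windows could reach beyond it, for example into coding sequence near the stop codon. All bases were eligible in 227 of the 312 members. In regions narrower than 200 bp the window also took in flanking bases. Both limits hold for the motif counts below. Open windows in introns had 44.9%, in TSS windows 44.0%, in 5′ UTRs 46.7% and in coding sequence 53.6%. Within the same host UTR, 194 of 246 members with such a closed window (78.9%, 73.3 to 83.5) had more GC than its closed windows, and the median difference was 6.16 percentage points (5.00 to 7.08). Repeat-masked bases made up 15.8% of a member on average, and 8 members were over 50% repeat.

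Of 15 short motifs counted in these windows, the GATA, GAGA, DRE and TGANTCA sites were more frequent in open than in closed 3′ UTR windows. For each, both the plain and the weighted closed share lay below the interval of the members. For DRE this rested on 6 members, 4 of them within 500 bp of a TSS, and did not hold among members farther away. Since AT-rich motifs depend on base composition, the share of closed windows is also given after weighting them to the GC content of the members. TGATAA was present in 67 members (21.5%, 17.3 to 26.4), in 14.2% of closed windows and in 11.01% after weighting. It was in 15.2% of all open regions, 18.8% of those in introns and 12.7% of those in TSS windows, and its share was alike on the X (20%) and the autosomes (22.1%). GAGAGAG was present in 22 members (7.05%, 4.70 to 10.4), in 2.63% of closed windows and in 3.53% after weighting. Open regions of introns (14.7%) and 5′ UTRs (20.5%) held it more often, and all open regions in 10.9%. Most overlapping matches lay in CG3078 (18), drn (8), the BET-family gene fs(1)h (6), MESK2 (6) and vrs (4), as in the repeat printed above for CG3078. The AP-1 type pattern TGANTCA was in 19 members (6.09%, 3.93 to 9.31), 3.62% of closed windows, 3.41% after weighting and 5.25% of all open regions. Its N stands for any base, so TGAATCA and TGATTCA were counted together with the AP-1 sites TGACTCA and TGAGTCA.

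Promoter motifs were in fewer members than in TSS windows. TATCGATA was in 6 members (1.92%, 0.884 to 4.13), in 0.558% of closed windows, in 0.482% after weighting, in 10.1% of TSS windows and in 5.16% of all open regions. Of the 6, 4 were among the 38 members within 500 bp of a TSS (10.5%, 4.17 to 24.1). They were CG13454, CG7370, vrs and dco, the last a casein kinase 1 gene. The other 2, Maf1 and exu, were among the remaining 274 members (0.730%, 0.200 to 2.62). Both closed shares lay inside that interval, and closed windows were not split by distance from a TSS. For GAGAGAG the shares were 1 of 38 (2.63%, 0.466 to 13.5) and 21 of 274 (7.66%, 5.07 to 11.4), with overlapping intervals. The core promoter element GGTCACAC (Motif 1) was in 1 member, roh (0.321%, 0.0566 to 1.79), in 0.177% of closed windows, 10.5% of TSS windows and 5.08% of all open regions.

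Of the sites for homeodomain proteins, TAATTA was less frequent in open than in closed 3′ UTR windows, before and after weighting, and for the other 2 the weighted closed share lay inside the interval of the members. TAATTA, the core bound by most homeodomain proteins, was in 23 members (7.37%, 4.96 to 10.8), 18.2% of closed windows and 12.3% after weighting, while all open regions had 7.38%. TTTATG, an Abd-B type site, was in 55 members (17.6%, 13.8 to 22.2), 23.4% of closed windows, 17.9% after weighting and 15.6% of all open regions. TGATTNAT, a composite site for Hox proteins with Exd, was in 18 members (5.77%, 3.68 to 8.93), 6.41% of closed windows, 5.26% after weighting and 3.56% of all open regions. The E-box CACGTG was in 6 members (1.92%, 0.884 to 4.13), against 1.37% of closed windows and 3.15% of all open regions. The ETS site CCGGAAGT was in 2 members (0.641%) and 0.304% of all open regions, and the Zelda site CAGGTAG also in 2 (0.641%) and 0.614% of all open regions, too few to set beside the closed windows (0.177% and 0.538%).

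Signals that act in the RNA were counted on the sense strand only, in the 307 members with UTRs on a single strand. AATAAA was in 55 (17.9%, 14.0 to 22.6), in 28.6% of closed windows and in 18.5% after weighting. The variant ATTAAA was in 36 (11.7%, 8.59 to 15.8), 21.5% and 13.6%. The Pumilio site TGTANATA was in 15 (4.89%, 2.98 to 7.90), 8.91% and 7.38%, and the AU-rich element TATTTAT in 19 (6.19%, 3.998 to 9.46), 11.7% and 7.30%. All of these shares were lower in open than in unweighted closed windows. After weighting, the closed share lay inside the interval of the members for each of these signals.

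**Figure D5:**
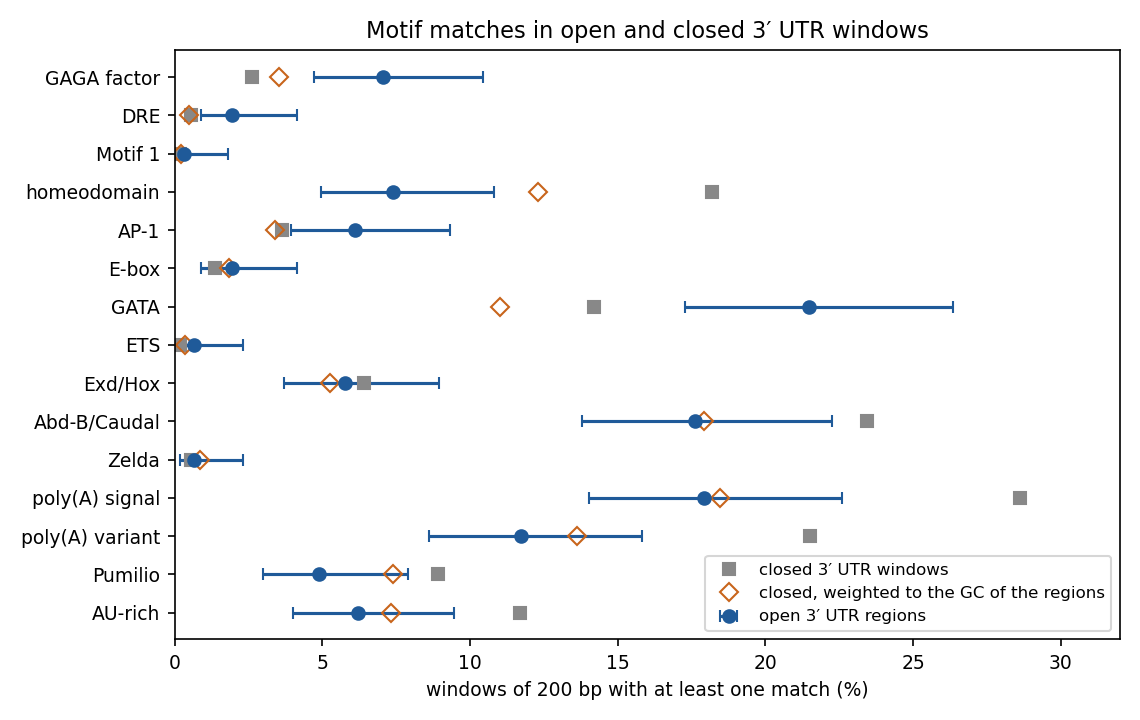
Share (%) of 200-bp windows with a match for 15 motifs, in the open 3′ UTR regions (blue, with 95% Wilson intervals), in closed 3′ UTR windows (grey squares) and in closed windows weighted to the GC content of the regions (open diamonds). GATA and GAGA factor sites lie right of both references, at 21.5% and 7.05%, and the homeodomain core lies left of both, at 7.37%.

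Hosts were also counted in lists of genes by function, over genes with at least 200 bp of eligible 3′ UTR. Genes of RNA binding and translational control had 7 hosts of 50 (14.0%, 6.95 to 26.2), compared with 3.66% of all such genes, but per Mb of their long UTRs they had 48.9 regions, close to the overall 48.4. The hosts were elav, heph with 3 regions, pum, the translational repressor Pumilio, with 2, orb, sqd, Hrb27C and nej. The last encodes a CBP-type coactivator of transcription, but it stood in this list, so the count and the density include it. In pum the regions lay 2217 and 2461 bp from the stop codon, and in orb, the fly CPEB, 301 bp from it in a UTR of 5243 bp. Cytoskeleton and adhesion genes had 4 hosts of 41 (9.76%, 3.86 to 22.5): the actin gene Act5C with 2 regions, the profilin gene chic, Rac2 and Fas2. Per Mb this list had 83.3 regions, from only 5 regions. The formin gene capu, whose UTR of 184 bp is under the length limit, held another. Neuronal genes had 3 of 28 (10.7%, 3.71 to 27.2), the channel genes Sh and para and the active-zone gene brp, with regions 3368 to 5249 bp from the stop codon, or 25.5 regions per Mb. Genes for 3′ end processing had 1 of 9 (11.1%, 1.99 to 43.5), Ssu72, a phosphatase of the RNA polymerase II tail, with a region of 513 bp.

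In the remaining lists with hosts, 3.85 to 5.71% of the genes hosted a region, close to the 3.66% of all genes with at least 200 bp of eligible 3′ UTR, which lay within the interval of each list. Hox and other homeodomain genes had 2 of 35 (5.71%, 1.58 to 18.6), Antp with a region of 188 bp and ct with one of 220 bp. Other transcription factors had 3 of 69 (4.35%, 1.49 to 12.02) with 6 regions: bun, br and Myc, whose regions of 623 and 198 bp lay 4416 and 4883 bp into a UTR of 6385 bp that a 3′ UTR of CG12535 overlaps on the opposite strand. Signalling genes had 3 of 68 (4.41%, 1.51 to 12.2), namely csw, Egfr and Pka-R2. Growth, cell death and cycle genes had 1 of 26 (polo, 3.85%), chromatin genes 1 of 26 (Su(z)2 with 2 regions, 3.85%), and hemocyte and immune genes 1 of 22 (Toll-7, 4.55%). Ecdysone response genes had 0 of 17, where the upper end of the interval is 18.4%, while br stood in the list of transcription factors.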

How the data were processed

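ATAC-seq was made from 3 libraries of basal Kc167 cells, and the deposited values are positions of open regions, without counts or scores (unit other). Per the study's methods, the authors aligned reads to dm6 without scaffolds (Bowtie 1.2.2, single alignments only), offset them for Tn5, called regions in each replicate with MACS2 2.1.1.20160309, and kept those open in at least 2 of 3. The depth behind a region is therefore unknown here.

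Positions, counted from 1 in the text, were set against the Ensembl release 115 annotation and the Release 6 genome on 7 arms (Python 3.11.15, numpy 2.4.6, scipy 1.17.1). Each midpoint took 1 class. The window around a TSS came before any exon, coding bases before UTRs, UTRs of the 5′ side before those of the 3′ side, and introns after all exons. A gene was open when a region came within 250 bp of a TSS. A region's UTR position used its longest UTR. Of the motifs, 11 were searched on both strands and 4 on the sense strand. Matches of different motifs may share bases, such as the homeodomain core and the ATTAAA signal, and each motif was counted without regard to the others. Closed windows were weighted by bins of 5 percentage points of GC. The 11 gene lists held 475 symbols, and those without a match in the annotation were left out. Regions are not replicates, so no p-value was computed. The code was tested on simulated data. The members, lists and motifs were chosen with earlier results of these data known. Named genes were the hosts of the 25 widest regions, hosts with several regions, the 5 farthest from a TSS, those around the 250 bp limit, those at noncoding TSSs, hosts in the lists, members with TATCGATA or GGTCACAC and the 5 with most GAGAGAG matches. Alternatives changed the distance limit, the assignment, the minimum width and the windows.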

Additional observations from a re-analysis of the deposited data

How the results depend on the processing

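Of 93 values recomputed under 14 alternative settings for 13 results, 80 stayed within the main 95% interval (within 1.5 times for the count, within 1 SD for GC) and 13 moved. A minimum width of 200 bp left 186 regions, 28.9 per Mb, with a median of 303.5 bp, TATCGATA in 0.538% and GGTCACAC in 0%. A limit of 500 bp from every TSS gave TATCGATA in 0.730% and GGTCACAC in 0%, and a limit of 1000 bp gave 0.444% and 0%, with 47.6% of the regions within 1 kb of another open region. That share was 47.4% when the gap was 500 bp and 70.2% at 2 kb. TAATTA was in 3.85% of windows of 100 bp. The limit of 500 bp removed 4 of the 6 regions with TATCGATA, which lie within 500 bp of a TSS. The GC weighting, the merging of neighbours, the strata of the X ratio, the split at 500 bp for motifs and the comparison within host UTRs were added after the data were seen. No paired analysis was possible because the list merges the replicates and no column carries a replicate number, and for the same reason no replicate could be left out. With no signal values, a region just above the authors' threshold counts as much as the strongest.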
